A study of Mus musculus with 8 samples.

Results

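Transcript levels of 9 genes of gp130 cytokine signalling were described in mouse muscle stem cells: the receptor genes Osmr, Il6st, Lifr and Il6ra, the kinase genes Jak1 and Jak2, the transcription factor gene Stat3 and the feedback genes Socs2 and Socs3. The genes were listed by name, with earlier results of these data known, and they are 9 of the 27554 genes in the deposited count table. The cells came from hindlimb muscle of C57BL/6NTac mice with the knock-in allele Pax7tm3955(T2A-ZsGreen)Tac together with the allele Myf5tm3956(T2A-E2Crimson)Tac. All 4 groups carry both reporter alleles, ZsGreen expressed from the Pax7 locus and E2Crimson from the Myf5 locus. None of them is a wild-type control, and the sample titles name no treatment. Pax7-positive cells were sorted by flow cytometry into Myf5High and Myf5Low fractions, which lie at either end of the E2Crimson fluorescence distribution, from female and from male mice. This gave female Myf5High, female Myf5Low, male Myf5High and male Myf5Low, with 2 libraries per group. Each library was a pool of 4 mice, so differences between single animals were not measured, and the age of the mice is not given in the labels. The comparisons ask how polyadenylated RNA differs between the fractions and between the sexes.

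The protein gp130, encoded by Il6st, is the signal-transducing receptor subunit that the interleukin 6 family of cytokines shares. Oncostatin M signals through gp130 paired with Osmr, leukaemia inhibitory factor through gp130 paired with Lifr, and interleukin 6 through Il6ra together with gp130. Ligand binding activates Jak kinases bound to the receptor tails, Stat3 is phosphorylated and moves to the nucleus, and Socs3, whose gene is a Stat3 target, binds the receptor complex and ends the signal. In muscle, oncostatin M is known as a cytokine that holds stem cells in quiescence, and Stat3 is known to influence their expansion and differentiation. Signalling of this kind is set by protein phosphorylation, which RNA counts do not measure.

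Gene counts per library were between 3140361 and 4238427, and 3 counts, taken as the detection floor, correspond to 0.672 to 0.986 CPM, the TMM-normalised count scaled to a common library size. Pax7 was at 1001 to 1498 CPM, and the counts of Xist and Y-linked genes matched the labelled sex in 8 of 8 libraries. Replicates differed by more than sampling noise, the chi-square divided by its degrees of freedom being 8.42 in female Myf5High, 19.3 in female Myf5Low, 17.4 in male Myf5Low and 25.8 in male Myf5High. The male Myf5High libraries stood furthest apart: their summed level of 11 myogenic commitment genes was 1408 CPM in replicate 1 and 208 CPM in replicate 2. The largest parts of this sum in replicate 1 were Ttn at 627 CPM and Actc1 at 300 CPM, while Myog and Mymk were at 0 there. Values without each of the male Myf5High libraries are given below for Osmr, Lifr, Jak1 and Socs3. A tested gene is called where its adjusted p-value from edgeR's quasi-likelihood test is under 0.05, and errors after ± are SDs.

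Compared per length, as CPM per kb of exon over all 8 libraries, Socs3 had the highest level at 67.2 ± 34.9 (n = 8). Stat3 followed at 26.1 ± 7.41 and Jak1 at 22.4 ± 4.84, an order that turned in male Myf5High (Stat3 18.7, Jak1 28.5). The shared receptor gene Il6st had 11.3 ± 1.82 and Lifr 8.85 ± 3.81 on this scale. Socs2 had 5.86 ± 1.49, Jak2 4.39 ± 1.49 and Osmr 1.56 ± 0.539. Il6ra was lowest at 0.246 ± 0.238, with 4 of 8 libraries at 10 counts or more. All 9 genes passed the filter on low counts, Il6ra through its few libraries with counts. The spread over libraries exceeded counting error for each member: the coefficient of variation of the CPM was smallest for Il6st, at 16.1% against 4.53% from counting alone, and among members detected in every library it was largest for Socs3, at 51.9% against 3.68%.

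**Figure D1:**
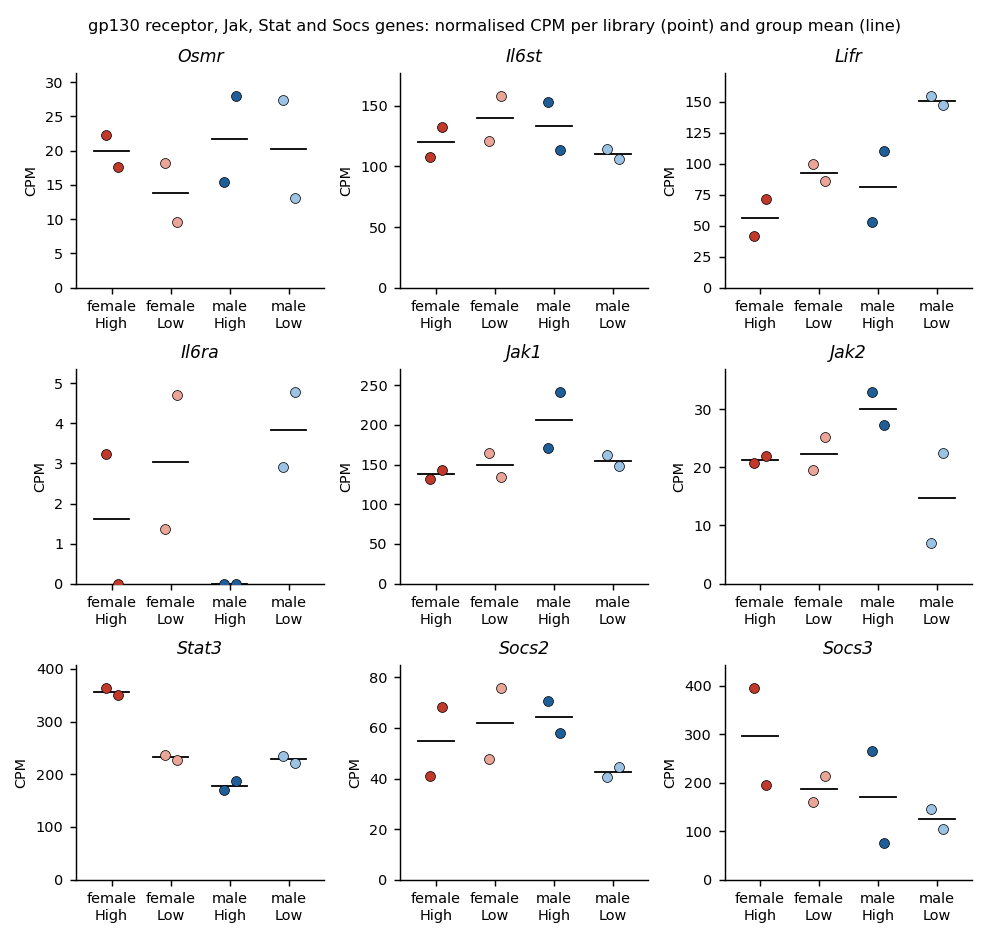
Normalised CPM (vertical axis, a scale from 0 for each gene) of the 9 genes in each of the 8 libraries, by group; points are libraries, lines are means of 2 libraries. The 2 female Myf5High libraries lie above all others for Stat3, the 2 male Myf5Low libraries lie above all others for Lifr, and Il6ra is at 0 in both male Myf5High libraries.

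None of the 9 members was called in any of 7 comparisons, which makes 0 calls in 63 member tests by edgeR. For Myf5High against Myf5Low over both sexes, 0 of 9 were called beside 1.2% of all 11730 tested genes, 2 of 9 (Lifr and Il6ra) had an unadjusted p under 0.05 beside 9.36% of all genes, and for 0 of 9 did the 4 libraries of one fraction lie clear of the other 4, beside 4.58%. For female against male over both fractions, 0 of 9 were called beside 1.65%, 3 of 9 (Lifr, Stat3 and Socs3) had an unadjusted p under 0.05 beside 13.9%, and 0 of 9 were clear of overlap beside 7.08%. The median log2 fold change of the members was 0.15 between the fractions and 0.10 between the sexes (female minus male), where that of all genes was -0.02 in both. DESeq2, run as an alternative, called 0 members between the fractions and 1, Stat3, between the sexes.

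Within the sexes and within the fractions the calls were also 0 of 9. The background was 0.332% called in female Myf5High against Myf5Low, 0.171% in male, 0.512% in female against male Myf5High and 0.205% in female against male Myf5Low. For the interaction, which tests whether the fraction difference differs between the sexes, it was 0%. An unadjusted p under 0.05 was reached by 1 member in females (background 7.36%), 3 in males (6.67%), 1 for the interaction (4.54%, or 533 genes), 3 in female against male Myf5High (11.3%) and 0 in female against male Myf5Low (7.18%). DESeq2 called 1 member, Stat3, in female against male Myf5High and 0 in the other comparisons within a sex or fraction and the interaction. With 2 libraries against 2, libraries often fail to overlap: this held for 2 of 9 members in females beside 39.1% of all genes, 6 of 9 in males beside 33.1%, 3 of 9 in Myf5High between the sexes beside 41.7% and 4 of 9 in Myf5Low beside 38.6%. These shares are near the background except in males, where the members that did not overlap were 6 of 9 and none was called. The tests of single members within a sex or fraction that are named below were chosen after their values were seen.

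**Figure D2:**
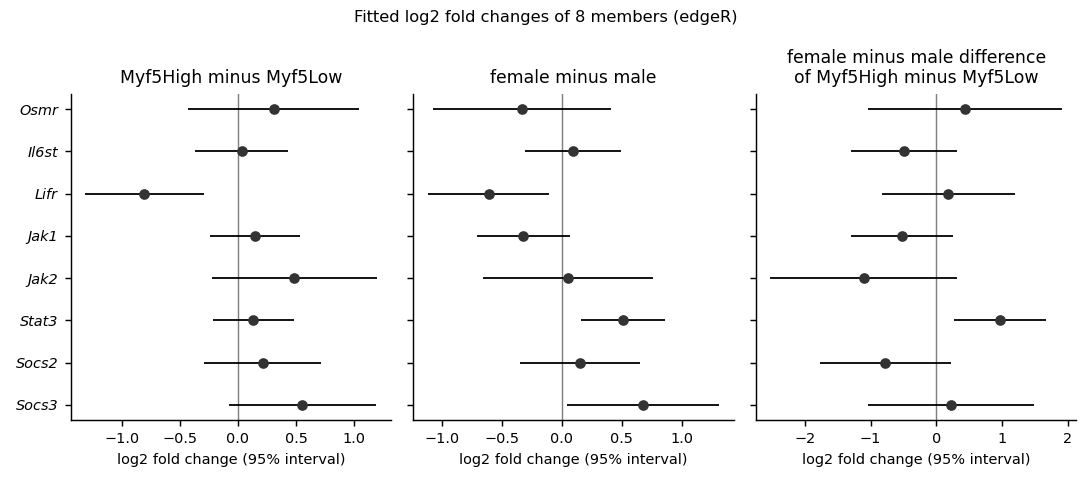
Fitted log2 fold changes (horizontal axis) with 95% intervals for 8 of the 9 genes in 3 comparisons; Il6ra, with a 95% interval from -7.20 to -0.64 for Myf5High minus Myf5Low, is left out for scale. The interval of Lifr lies below 0 in the first and second panels that of Stat3 above 0 in the second and the last and that of Socs3 above 0 in the second, and none of these passed adjustment over all genes.

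Among the receptors, Il6st on chromosome 13 (ENSMUSG00000021756, 112464070 to 112510086, GRCm38) was the most even member. Its levels were 108 and 132 CPM in the Myf5High and 121 and 158 in the Myf5Low libraries of females, and 153 and 113 in the Myf5High and 114 and 106 in the Myf5Low libraries of males. The highest library had 1.49 times the level of the lowest, and neighbouring groups in the order of means, from female Myf5Low (139 ± 25.9 CPM, n = 2) through male and female Myf5High to male Myf5Low (110.1 ± 5.62 CPM, n = 2), overlapped in every case. The log2 difference between the fractions was 0.03, with a 95% interval from -0.37 to 0.43, and between the sexes 0.10, from -0.31 to 0.50. These intervals bound the differences in either direction and do not show that the groups are equal.

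Osmr (ENSMUSG00000022146), the oncostatin M receptor gene, lies on chromosome 15 from 6813577 to 6874969, and Lifr (ENSMUSG00000054263) lies 215.6 kb away on the same chromosome from 7090614 to 7197489. Osmr was at 22.3 and 17.6 CPM in the Myf5High and 18.1 and 9.64 in the Myf5Low libraries of females, and 15.4 and 27.9 in the Myf5High and 27.3 and 13.1 in the Myf5Low libraries of males. All neighbouring groups in the order of its means overlapped, and libraries within a group were as far apart as the groups. The counts behind these values were 41 to 122 per library, and the 95% interval of the log2 fraction difference ran from -0.43 to 1.04 around 0.31. Between the sexes the log2 difference was -0.33, with an interval from -1.07 to 0.41. Without male Myf5High replicate 1 the fraction and sex differences were 0.49 and -0.52, without replicate 2 0.061 and -0.087, and without male Myf5Low replicate 1 0.62 and -0.029. The sex difference was furthest from 0 without female Myf5Low replicate 1, at -0.61.

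Lifr, the receptor subunit for leukaemia inhibitory factor, had lower means in Myf5High than in Myf5Low in both sexes. It was at 41.4 and 71.5 CPM in female Myf5High and at 99.7 and 85.8 in female Myf5Low. In males it was at 52.6 and 110.1 CPM in Myf5High and at 154 and 147 in Myf5Low. Within each sex both Myf5High libraries were below both Myf5Low libraries, but over the sexes the fractions overlapped, since male Myf5High replicate 2 lay above both female Myf5Low libraries. The order of group means was male Myf5Low (151 ± 4.90 CPM), female Myf5Low (92.8 ± 9.81), male Myf5High (81.4 ± 40.7) and female Myf5High (56.5 ± 21.3, n = 2 each), and only male Myf5Low did not overlap its neighbour. The log2 difference of Myf5High minus Myf5Low was -0.80 (SE 0.242, edgeR adjusted p 0.159), with -0.71 in females (adjusted p 0.682) and -0.90 in males (adjusted p 0.561). The difference between these 2 values, 0.18 with an interval from -0.83 to 1.20, was not called. Female minus male gave -0.61 (SE 0.241, edgeR adjusted p 0.251), and -0.70 within Myf5Low (adjusted p 0.699).

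The Lifr result turned on 1 library and on the filter. Without male Myf5High replicate 2 the fraction difference was -1.12 and was called (edgeR adjusted p 0.00942), and with no filter on low counts it was -0.81 and was called (adjusted p 0.0159), where the adjusted p over all 15 alternatives ran up to 0.621. Without male Myf5High replicate 1 it was -0.58 and was not called. In males alone it ran from -0.45 without replicate 1 to -1.52 without replicate 2 of Myf5High, and in females from -0.39 without replicate 1 to -1.16 without replicate 2 of Myf5High, with 0 of these called. Without male Myf5High replicate 1 the sex difference was -0.83 and was called (adjusted p 0.0289, against up to 0.624 over the alternatives), and without male Myf5High replicate 2 it was -0.30 and was not. The summed level of 9 endothelial genes was 337 and 289 CPM in the Myf5High and 407 and 510 in the Myf5Low libraries of females, and 579 and 578 in the Myf5High and 510 and 904 in the Myf5Low libraries of males. This sum was lowest in the group where Lifr was lowest and its highest library was a male Myf5Low library. Not all libraries followed this order: male Myf5High replicate 1 had a high sum and a low Lifr level. The highest Lifr level, in male Myf5Low replicate 1, came with a sum of 510 CPM, below both male Myf5High sums. All 9 endothelial genes were detected, 1 of 9 had a positive fraction difference and 1, Egfl7, was called between the sexes. In bulk libraries fewer cells of a type and less RNA per cell cannot be told apart, and the part of endothelial RNA in the Lifr difference was not tested.

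Il6ra, the ligand-binding receptor for interleukin 6, is on chromosome 3 (ENSMUSG00000027947, 89864059 to 89913196) and was close to the detection floor. It had 10 and 0 counts in the Myf5High and 5 and 20 in the Myf5Low libraries of females, and 0 and 0 in the Myf5High and 13 and 20 in the Myf5Low libraries of males. As CPM these are 3.23 and 0, 1.37 and 4.70, 0 and 0, and 2.91 and 4.78. No count was seen in 3 of the 4 Myf5High libraries, and all 4 Myf5Low libraries had some. With the male Myf5High libraries set to the floor of 3 counts each, a mean of 0.853 CPM, the level was at least 4.51-fold lower there than the male Myf5Low mean of 3.85 ± 1.32 CPM (n = 2). The fitted log2 difference between the fractions, -3.92 (SE 1.55, edgeR adjusted p 0.386), depends on the prior count, and it was not called. Leaving out each library, it ran from -3.34 without female Myf5Low replicate 2 to -6.77 without female Myf5High replicate 1. Over all 14 alternatives it ran from -6.77 to -2.65. Within males the fitted difference was not called either (edgeR adjusted p 0.557). The fitted sex difference, 2.65 over both fractions (edgeR adjusted p 0.472), rested on female Myf5High replicate 1, without which it was -0.17.

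The summed level of 11 immune cell genes was 45.6 and 25.5 CPM in the Myf5High and 54.4 and 95.02 in the Myf5Low libraries of females, and 19.7 and 34.9 in the Myf5High and 55.1 and 87.7 in the Myf5Low libraries of males. It did not overlap between the fractions, running from 19.7 to 45.6 in Myf5High and from 54.4 to 95.02 in Myf5Low. Of 8 tested immune genes 1 had a positive difference, and C1qa, a complement gene of macrophages, was called lower in Myf5High (log2 difference -2.13, SE 0.394, edgeR adjusted p 0.00771). Ptprc, which encodes the pan-leukocyte antigen CD45, was at 0 in the same 3 libraries that had no Il6ra count, a marker chosen after its values were seen. Other immune genes did not follow this: C1qa, Cd68 and Lyz2 had counts in all 3, and Cd68 had its highest level, 20.4 CPM, in male Myf5High replicate 2. The share of Il6ra counts that came from immune cells was not tested.

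**Figure D3:**
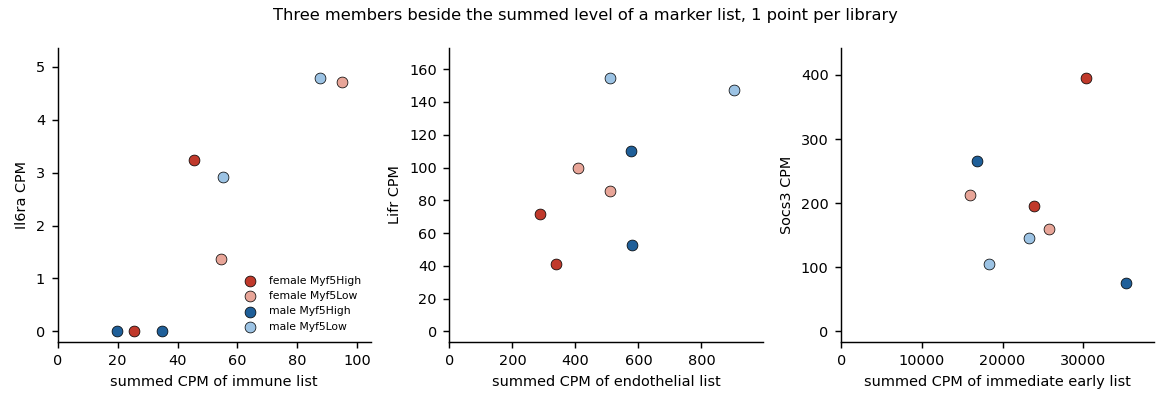
Levels of Il6ra, Lifr and Socs3 (vertical axes, CPM) against the summed CPM of a marker list in the same library (horizontal axes: immune, endothelial and immediate early genes); 1 point per library, 8 in each panel, coloured by group. The 3 libraries with Il6ra at 0 have immune sums from 19.7 to 34.9 CPM, and the library with the highest immediate early sum, male Myf5High replicate 2, has the lowest Socs3 level.

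The kinase gene Jak1 (ENSMUSG00000028530, chromosome 4, 101152367 to 101265282) was at 132 and 143 CPM in the Myf5High and 164 and 134 in the Myf5Low libraries of females, and 171 and 241 in the Myf5High and 162 and 148 in the Myf5Low libraries of males. Both male Myf5High libraries lay above the other 6, and the other neighbouring groups in the order of means overlapped. Its log2 difference between female and male Myf5High was -0.58 (SE 0.263, edgeR adjusted p 0.409), -0.81 without male Myf5High replicate 1 and -0.31 without replicate 2. Over both sexes the fraction difference was 0.15, with an interval from -0.24 to 0.54, and the sex difference over both fractions -0.32, from -0.71 to 0.07. Without male Myf5High replicate 1 these were 0.26 and -0.43, and without replicate 2 0.012 and -0.18.

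Jak2 (ENSMUSG00000024789), on chromosome 19 from 29251828 to 29313080, was at 20.7 and 21.9 CPM in the Myf5High and 19.5 and 25.2 in the Myf5Low libraries of females, and 32.9 and 27.3 in the Myf5High and 6.94 and 22.5 in the Myf5Low libraries of males. The female libraries spanned a narrow range, while the highest and lowest values of the series were both male and differed 4.74-fold. In males the log2 difference of Myf5High minus Myf5Low was 1.04 (SE 0.481, edgeR adjusted p 0.735), and it ranged from 0.43 without male Myf5Low replicate 1 to 2.11 without male Myf5Low replicate 2. The interaction, -1.11 with an interval from -2.53 to 0.31, was not called, and it was -0.51 and -2.18 without these same libraries.

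Stat3 (ENSMUSG00000004040, chromosome 11, 100885098 to 100939540, minus strand) had replicates close together in every group. It was at 364 and 349.8 CPM in the Myf5High and 237 and 228 in the Myf5Low libraries of females, and 169.8 and 187 in the Myf5High and 236 and 221 in the Myf5Low libraries of males. Both female Myf5High libraries lay above every other library and both male Myf5High libraries below every other, with the Myf5Low libraries of both sexes together in between. The order of means was female Myf5High (357 ± 9.67 CPM), female Myf5Low (232 ± 6.64), male Myf5Low (229 ± 10.03) and male Myf5High (179 ± 12.5, n = 2 each), and only the Myf5Low groups overlapped.

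In females the Stat3 log2 difference of Myf5High minus Myf5Low was 0.62 (SE 0.236, edgeR adjusted p 0.480) and in males -0.36 (SE 0.236, adjusted p 0.898). These opposite values left a difference of 0.13 over both sexes, with an interval from -0.22 to 0.48. The interaction was 0.97 (SE 0.333, interval 0.27 to 1.67) and was not called, with an edgeR adjusted p of 1.00 over 11730 genes, of which 0 were called. Female minus male was 0.51 over both fractions (SE 0.167, edgeR adjusted p 0.152), 1.00 in Myf5High (SE 0.238, adjusted p 0.0718) and 0.02 in Myf5Low (adjusted p 0.997). The value in Myf5High was close to the threshold: DESeq2 called it (log2 difference 0.98, adjusted p 0.00222), as did edgeR without a filter on low counts (adjusted p 0.0321) and with a filter at a mean of 50 counts (adjusted p 0.0454), while the highest adjusted p over the 14 alternatives was 0.508. Its size stayed between 0.93 and 1.07 in all 14. For the sex difference over both fractions DESeq2 gave an adjusted p of 0.0497, the lowest over 15 alternatives that reached 0.458. Stat5a overlaps 72 bp of Stat3 exon on the opposite strand, which is 0.756% of the exon length, and reads from that stretch cannot be assigned without knowledge of the strand setting.

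Socs3 (ENSMUSG00000053113), the feedback inhibitor of gp130 signalling, lies on chromosome 11 from 117966079 to 117970047 on the minus strand. Its promoter window and that of Stat3 are shown because Stat3 dimers are known to bind the element TTCNNNGAA, which reads the same on both strands. RefSeq windows of GRCm38.p6, from 250 bases before to 50 bases after an annotated start, were available for 8 of the 9 genes, with 9 windows in all since Lifr has 2. The element was found in 1 of these 9 windows, that of Socs3, as TTCTTAGAA with its first base at position -154 from the start. It occurs in 2726 of all 32851 such windows, or 8.3%, and a match is no evidence of binding. The Socs3 window is chr11:117969317-117969616 and the Stat3 window chr11:100939491-100939790, both written 5′ to 3′ on the minus strand with the element in capitals.
Socs3: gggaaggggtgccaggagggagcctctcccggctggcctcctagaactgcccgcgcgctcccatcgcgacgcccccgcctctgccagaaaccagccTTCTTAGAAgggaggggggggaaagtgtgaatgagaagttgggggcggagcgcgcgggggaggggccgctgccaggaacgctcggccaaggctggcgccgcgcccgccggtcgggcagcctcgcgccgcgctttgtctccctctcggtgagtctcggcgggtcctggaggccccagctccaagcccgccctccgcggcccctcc
Stat3: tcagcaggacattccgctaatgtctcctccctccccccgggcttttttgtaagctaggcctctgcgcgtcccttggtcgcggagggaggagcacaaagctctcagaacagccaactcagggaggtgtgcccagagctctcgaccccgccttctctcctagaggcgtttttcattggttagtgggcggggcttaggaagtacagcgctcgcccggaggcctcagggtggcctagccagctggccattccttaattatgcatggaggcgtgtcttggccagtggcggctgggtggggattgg

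Socs3 had the widest spread among members detected in every library, with 5.26 times the level in the highest library as in the lowest. It was at 395 and 196 CPM in the Myf5High and 159.6 and 213 in the Myf5Low libraries of females, and 265 and 75.0 in the Myf5High and 146 and 105 in the Myf5Low libraries of males. The groups overlapped at every step of the order of means, from female Myf5High (295 ± 140.4 CPM) and female Myf5Low (186 ± 37.7) to male Myf5High (170.2 ± 135) and male Myf5Low (125 ± 29.0, n = 2 each). Replicates of both Myf5High groups lay further apart than the group means did. The log2 difference of Myf5High minus Myf5Low was 0.55 (SE 0.301, edgeR adjusted p 0.632), 0.66 in females (adjusted p 0.821) and 0.44 in males (adjusted p 0.976). Female minus male was 0.68 (SE 0.302, edgeR adjusted p 0.314), and 0.79 within Myf5High (SE 0.427, adjusted p 0.513).

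These Socs3 values moved with single Myf5High libraries. The female fraction difference was 0.058 without female Myf5High replicate 1 and 1.08 without replicate 2. The other differences moved with the male Myf5High libraries. Without male replicate 2 the fraction difference over both sexes was 0.87 and called (edgeR adjusted p 0.0433), and without male replicate 1 it was -0.039, where the adjusted p over all 15 alternatives ran up to 1.00. In males alone it was 1.08 without replicate 2 and -0.74 without replicate 1, and neither was called. The sex difference without male Myf5High replicate 1 was 1.27 over both fractions (edgeR adjusted p 0.00403) and 1.98 within Myf5High (adjusted p 0.0117), both called, and without replicate 2 it was 0.36 and 0.16, neither called. The value over both fractions was also called with no filter on low counts, at 0.67 (adjusted p 0.0299), where the adjusted p over the alternatives ran up to 0.747, or 0.982 within Myf5High.

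The summed level of 11 immediate early genes, which respond to tissue dissociation among other stimuli, was 30400.4 and 23840 CPM in the Myf5High and 25702 and 15939 in the Myf5Low libraries of females, and 16844 and 35301 in the Myf5High and 23307 and 18265 in the Myf5Low libraries of males. Female Myf5High replicate 1 was high both in this sum and in Socs3, whereas male Myf5High replicate 2 had the highest sum and the lowest Socs3 level. All 11 had a positive fraction difference with 0 called by edgeR, and 3 (Nr4a1, Btg2 and Dusp1) were called higher in females. Calls for these 3 were lost without female Myf5High replicate 1 (edgeR adjusted p 0.0556 for Nr4a1, 0.103 for Btg2 and 0.0595 for Dusp1), and that for Dusp1 also without female Myf5Low replicate 2 (0.0678). The part of dissociation in the Socs3 values was not tested.

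Socs2 (ENSMUSG00000020027, chromosome 10, 95385362 to 95417180), an inhibitor best known for restraining growth hormone signalling, was at 41.1 and 68.2 CPM in the Myf5High and 47.8 and 75.7 in the Myf5Low libraries of females, and 70.8 and 58.2 in the Myf5High and 40.8 and 44.4 in the Myf5Low libraries of males. The replicates of both female groups lay further apart than any of the group means, and all neighbouring groups in the order of means overlapped. The log2 fraction difference was 0.21, with an interval from -0.29 to 0.71, and the sex difference 0.15, from -0.35 to 0.65. The fraction difference ran from 0.0045 without female Myf5High replicate 2 to 0.40 without female Myf5Low replicate 2.

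The other genes of the pathway were followed in a list of 43, of which 29 were tested and 0 were called by edgeR in any of the 7 comparisons. Between the fractions 16 of the 29 had a positive difference, with a median of 0.03 against -0.02 over all genes, and between the sexes 15 of 29, with a median of 0.01 against -0.02. Most ligand genes were at or near the floor, and 4 of the 11 listed were tested. Osm, which encodes oncostatin M, had 2 counts in all 8 libraries together, Lif 5, Ebi3 15, Il6 22 and Cntf 23, and Il27 and Il31 had none. Il11 averaged 1.18 CPM and Ctf1, which encodes cardiotrophin 1, 1.65 CPM.

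Clcf1, which encodes a cytokine of the family, averaged 25.0 CPM, from 6.90 in male Myf5High replicate 2 to 45.9 in female Myf5High replicate 1. Clcf1 had a log2 difference of 1.25 between the sexes (SE 0.345), not called with an edgeR adjusted p of 0.0772 and called in 3 of 15 alternatives, where the adjusted p ranged from 0.00253 to 0.325. Among receptors outside the members, Il11ra1 was at 364 to 841 CPM, or 121 CPM per kb, although near-identical copies of this gene in the mouse genome make its count uncertain. Cntfr, the receptor gene for ciliary neurotrophic factor, averaged 2.06 CPM, Il27ra had 2 counts and Il31ra none.

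**Figure D4:**
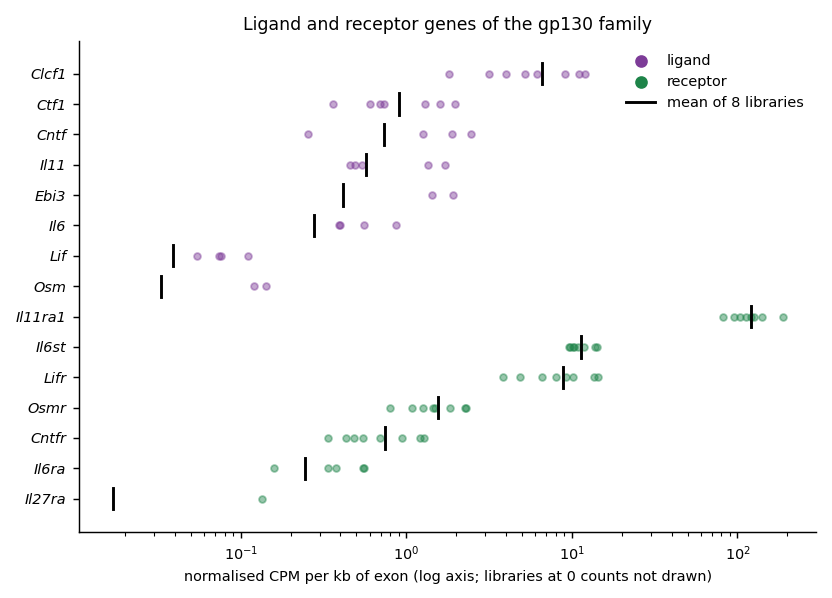
Normalised CPM per kb of exon (horizontal log axis) of ligand genes (purple) and receptor genes (green); points are libraries with at least 1 count and black bars are means over all 8 libraries, zeros included. Il11ra1 at 121 lies above all others drawn, and the bars for Osm and Lif lie below those of all 4 receptor members.

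Of the other kinase genes, Tyk2 averaged 18.1 CPM and Jak3 had 4 counts over the 8 libraries. Among Stat genes outside the members, Stat5b averaged 65.4 CPM and Stat6 31.3 CPM. Of the inhibitors, Ptpn11, which encodes a phosphatase that binds gp130, averaged 112 CPM and Ptpn1 104 CPM. Socs7 was at 116 and 119 CPM in female Myf5High and 44.7 and 54.2 in male Myf5High, a log2 difference of 1.25 (SE 0.288). This was not called (edgeR adjusted p 0.0608) but was in 3 of 14 alternatives, where the adjusted p ranged from 0.0057 to 0.389, and Socs7 is named here after its values were seen.

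A list of 22 genes known as Stat3 targets in other cells had 20 tested members. Between the fractions 17 of 20 had a positive difference, with a median log2 difference of 0.37 where all genes had -0.02. Of the 20, 1 was called, beside 1.2% of all tested genes. Between the sexes 15 of 20 were positive, with a median of 0.39 against -0.02, and 2 were called, beside 1.65% of all tested genes. The list holds Fos, which is also on the immediate early list, and its most abundant genes were Fos, Junb and Ccnd1, at means of 4244, 2066 and 404 CPM. Immediate early sums are given above, and their part in the target list was not tested.

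Cebpd, a transcription factor gene induced by interleukin 6, was at 589.6 and 447 CPM in the Myf5High and 247 and 223 in the Myf5Low libraries of females, and 256 and 327 in the Myf5High and 139 and 175 in the Myf5Low libraries of males. Each Myf5High library was above each Myf5Low library, and the gene was called higher in Myf5High (log2 difference 1.02, SE 0.182, edgeR adjusted p 0.00598). Without female Myf5High replicate 1 it was not (adjusted p 0.0587). Cebpb, which encodes a related factor of the acute-phase response, was at 151 and 139 CPM in the Myf5High and 98.1 and 78.1 in the Myf5Low libraries of females, and 69.2 and 55.6 in the Myf5High and 56.5 and 47.8 in the Myf5Low libraries of males. All 4 female libraries were above all 4 male libraries, and it was called higher in females (log2 difference 0.98, SE 0.198, edgeR adjusted p 0.0133). The call was lost without female Myf5High replicate 1 (edgeR adjusted p 0.0873), without female Myf5Low replicate 1 (0.0579) and without male Myf5Low replicate 2 (0.0593).

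Pim3, a serine/threonine kinase gene, was at 333 and 301 CPM in the Myf5High and 198 and 270.5 in the Myf5Low libraries of females, and 115 and 96.3 in the Myf5High and 86.9 and 145 in the Myf5Low libraries of males. Again no female library fell among the male libraries. It was called higher in females over both fractions (log2 difference 1.30, SE 0.203, edgeR adjusted p 0.00159) and in Myf5High alone (1.59, SE 0.289, adjusted p 0.0144), the latter not without female Myf5High replicate 1 (adjusted p 0.126). For Stat3, as for these 3 genes, female Myf5High had the highest mean. The 3 are named because they were called higher in Myf5High or in females, so their highest group follows largely from that choice. In males the mean of Stat3 was lower in Myf5High than in Myf5Low (179 against 229 CPM), as was that of Pim3 (105 against 116). Those of Cebpd (292 against 157 CPM) and Cebpb (62.4 against 52.1) were higher there.

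**Figure D5:**
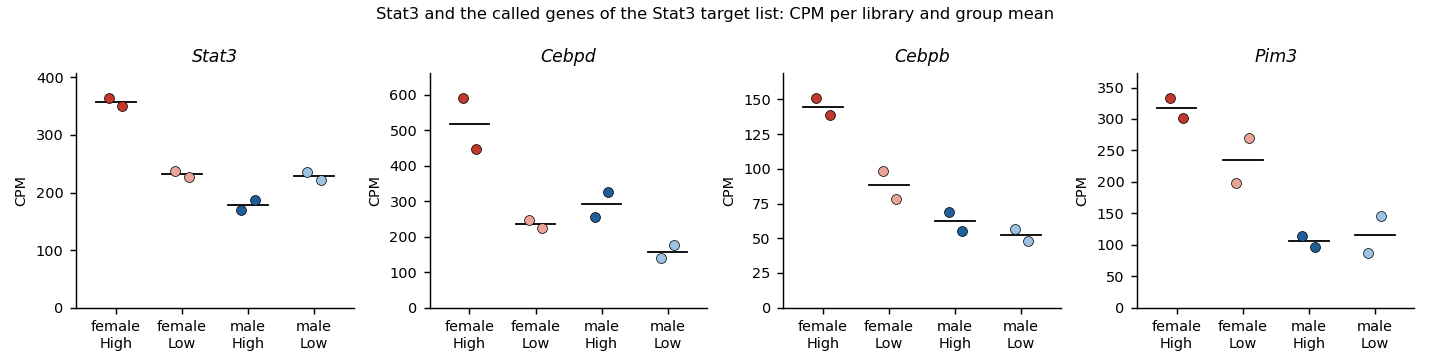
Normalised CPM (vertical axis from 0) of Stat3 and of the 3 called genes of the Stat3 target list in each library, by group; points are libraries and lines are means of 2. Female Myf5High is the highest group in all 4 panels, and the male libraries lie below the female ones for Cebpb and Pim3.

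Markers of the sorted cells and of other cell types were counted beside these results. Of all tested genes, 1.2% were called between the fractions and 1.65% between the sexes, in either direction. Of 11 muscle stem cell genes, 4 were called higher in Myf5High (Myf5, Calcr, Chrdl2 and Des), and of these only Calcr did not overlap. The sorted reporter sits in the Myf5 locus, so the Myf5 call is not independent of the sort. Myf5 was at 39.5 CPM in male Myf5High replicate 2 and 41.9 in male Myf5Low replicate 1, and was not called in males (edgeR adjusted p 0.808). Of 11 myogenic commitment genes 2 (Myog and Mymk) were called lower in Myf5High and 2 (Mef2c and Myh3) lower in females. The sexes overlapped for both: Myh3 was at 175 and 1.32 CPM in the Myf5High and 0.448 and 100.1 in the Myf5Low libraries of males. Acta2 was the 1 called of 9 mural genes, lower in Myf5High, and Dpt the 1 called of 8 tested fibro-adipogenic genes, higher in Myf5High. Of 5 tested glial genes 0 were called by edgeR between the fractions or the sexes. The summed fibro-adipogenic level was 1599 CPM in male Myf5High replicate 1, 935 in replicate 2, and 497 to 764 in the other 6 libraries.

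By the Pearson correlation of log2 CPM over the 8 libraries, the gene most like Stat3 among 9541 compared was Rplp0 (r = 0.953), followed by Fermt2 (0.951). For Socs3 these were Erp44 (0.985) and Ube2h (0.972), for Lifr Coch (0.964) and Sox8 (0.961), and for Il6st Glrx5 (0.963) and Nudt6 (0.952). Osmr was most like Cwc27 (0.969) and Ccdc57 (0.965), Il6ra like Sorl1 (0.965) and Ikzf5 (0.925), Jak1 like Rab13 (0.963), Jak2 like Pcbd2 (0.975) and Pi4k2a (0.957), and Socs2 like Pdhx (0.946) and Elf4 (0.922). No member had another member among these genes by construction, since members were left out of the search. The 8 points share libraries and depth, and with this many genes compared high values are reached for every member, so they are a description only.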

How the data were processed

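Polyadenylated RNA of sorted muscle stem cells was sequenced as single reads. The authors deposited unnormalised whole-number counts per Ensembl gene on GRCm38, made with HTSeq per the submitters' processing notes. The aligner, the annotation release and the strand setting are not given in the sources used here, so genes that overlap on opposite strands may share reads. Reads that HTSeq assigned to no feature, 42.0% to 45.3% of each column's total, were left out of library sizes. Symbols, coordinates and exon lengths came from GENCODE M21 (GRCm38), which matched 27518 of 27554 identifiers. No column was left out.

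Groups came from the sample titles. Each library is a pool from its own mice within a group, and p-values measure the spread between such pools. The edgeR package (version 4.0.16, R 4.3.3) was used: filterByExpr (settings: count 10, total 15) retained 11730 genes, TMM gave the scaling, and glmQLFit was run on all 8 libraries with a mean for each group. The 7 comparisons were tested two-sided with glmQLFTest, with Benjamini-Hochberg adjustment over all 11730 genes. Levels are TMM-normalised CPM computed from the deposited counts. Each SE is the log2 fold change divided by the root of F, and intervals are 95%. Intervals and floors cover the fitted spread and counting error respectively. Steps were tested on simulated data.

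The members and lists were chosen with earlier results of these data known. All members, called list genes and the most abundant list genes are named, with ligands given by their level; 2 genes that these rules name are not reported here. The 2 genes most like each member were sought among genes averaging 5 CPM or more (log2 CPM with prior count 2). Other settings tried were RLE scaling, leaving out Gm42418 (20.1% to 28.8% of gene counts) and mitochondrial genes (0.694% to 2.82%), no filter, a mean of at least 50 counts, DESeq2 1.42.0, an additive model, a fit restricted to the 4 libraries of a comparison, the pool as a block or summed, and leaving out each library.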

Additional observations from a re-analysis of the deposited data

Results flagged for a closer look

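Il6st in male Myf5High replicate 1, at 153 CPM, stood apart from the other 3 male libraries, the nearest of which was at 114 CPM. Its gap was 0.832 of the range of the 4 male libraries, just past Dixon's 95% critical value. Il6ra in female Myf5High replicate 1, at 3.23 CPM (10 counts), was the single Myf5High library with a count, the other 3 being at 0. Any count there would have been flagged, since the gap is then the whole range. Chance flags about 1 in 20 groups, and 36 were tested, but this rate does not hold for such a group with libraries at 0.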

How the results depend on the processing

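Over the 34 member tests named in the report, 499 alternative fits kept direction and side of the threshold in 470, changed sign in 18 and passed the threshold in 11. The cause was not tested for any of these. Members called between the fractions numbered 1 with no filter and 0 to 2 leaving out each library; between the sexes 1 with no filter, 1 with DESeq2 and 0 to 2; and between the sexes in Myf5High 1 with no filter, 1 at a mean of 50 counts, 1 with DESeq2 and 0 to 1. In the other 4 comparisons they were 0 in every fit. All genes called between the fractions, 141, became 291 with no filter, 234 with DESeq2 and 82 to 243 leaving out each library. Between the sexes, 194 became 477, 371 and 82 to 558, with 82 and 99 without female Myf5Low replicate 2 and female Myf5High replicate 1, and 558 without male Myf5High replicate 1. Signs changed for Jak2 between the sexes with summed pools (-0.0045). Leaving out each library, log2 differences that changed sign ran from -0.087 to 0.13 for Il6st and from -0.039 to 0.87 for Socs3 between the fractions. Between the sexes they ran from -0.0055 to 0.21 for Il6st, -0.17 to 3.16 for Il6ra, -0.26 to 0.59 for Jak2 and -0.057 to 0.29 for Socs2, and in Myf5Low from -0.024 to 0.070 for Stat3. The male fraction difference of Socs3 ran from -0.74 to 1.08 and the Lifr interaction from -0.27 to 0.81.

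With the pool as a replicate block, Lifr between the fractions was -0.87 (edgeR adjusted p 0.136), 136 genes were called and no member call changed. Myf5High and Myf5Low libraries of 1 sex and number share a pool label stem, and the labels do not say whether they came from the same mice. Their deviations correlated at 0.027 in females and -0.00027 in males, and the main fit did not pair them. With 2 libraries per group these values cannot show that such libraries are independent. Sex tests over both fractions count them as separate, and summed pools were the alternative. Il6ra has no value under the filter at 50 counts, and summed pools give none within a fraction. Scalings shifted the median gene by under 0.02 in every comparison. Depth limits statements on Il6ra and most ligands.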
